A study of Homo sapiens with 13 samples.

Results

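MHC class I antigen presentation was followed on 60-base oligonucleotide arrays through 8 genes, the heavy chain genes HLA-B, HLA-C, HLA-E and HLA-F, the light chain gene B2M, the peptide transporter genes TAP1 and TAP2, and the tapasin gene TAPBP. The members were all non-control probes to which the array design gave one of these names, 16 of the 34127 probes on the array. A probe was tested when, in 1 or more of the 4 groups, the scanner software marked it as well above background on all arrays. This held for 13 of the 16 probes, for 22754 probes in all, and for at least 1 probe of each of the 8 genes. All 13 were well above background on all 13 arrays.

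Class I molecules carry short peptides from proteins made inside the cell to the cell surface, where CD8 T cells and natural killer cells read them. Proteasomes cut the peptides, the transporter built from TAP1 and TAP2 moves them into the endoplasmic reticulum, and tapasin, the product of TAPBP, holds an empty class I molecule at the transporter until a peptide binds. Each class I molecule is a heavy chain paired with beta-2-microglobulin, the product of B2M. HLA-B and HLA-C are classical heavy chains that present many different peptides, while HLA-E and HLA-F are non-classical heavy chains recognised by receptors of natural killer cells. In lymphocytes the class I genes are held up by the transactivator NLRC5 and can be raised by interferon.

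The cells were CCRF-CEM, a human cell line from a T cell acute lymphoblastic leukemia. CEM PA was the parental line and CEM RES a subline of it, isolated in rising concentrations of FK866 and used once it resisted 100 nM. FK866 blocks NAMPT, the enzyme that starts the recycling of nicotinamide into NAD+. Each line was given DMSO (mock) or FK866 at 5 nM for 48 h, which made 4 groups: 3 arrays of CEM PA mock, 2 of CEM PA FK866, 4 of CEM RES mock and 4 of CEM RES FK866. The labels call the arrays of a group biological replicates. CEM RES was a single resistant subline. The study's methods state that it was kept in 100 nM FK866, so mock CEM RES had met the drug before. The 5 nM given here was therefore below the dose of its culture, which was not so for CEM PA.

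Several properties of the arrays touch the results below. Between 26457 and 33239 of the 43118 non-control spots of an array were well above background, and 0 were saturated. All CEM PA arrays were read in scan sessions 1 and 2 and all CEM RES arrays in session 3, so line and scan session cannot be told apart in any value that sets CEM RES against CEM PA. CEM RES mock replicate 1 stood apart from the other arrays of its line, with a raw 75th percentile of signal of 536.8 against 1043.8 to 1588.7, and the counts for mock cells are given with and without it. All 14 T lineage markers were well above background on all 13 arrays, and between the lines in mock CD3G and CD3E were higher in CEM RES by 1.204 and 1.120 on the log2 scale and CD5 and PTCRA lower, with differences of -1.96 and -1.24. Of the myeloid, epithelial and stromal markers, S100A8, S100A9, EPCAM, CDH1, COL1A1 and COL3A1 were above background on no array, while CD14, ITGAM, KRT8, KRT18, VIM and PECAM1 were so on all 13. The summed signal of the T lineage markers, which is weighted to the brightest of them, was 197015 to 211427 in CEM PA mock and 214551 to 235098 in CEM RES mock. In bulk RNA, fewer cells that carry a transcript and less transcript per cell cannot be told apart.

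Probes of the classical heavy chains are shown first because their sequences set what each can tell apart. The design placed the HLA-B probe A_33_P3424800 at chr6:31321663-31321722 and the HLA-B probe A_33_P3379947 at chr6:31321653-31321712, both on the minus strand of hg19. It placed the HLA-C probe A_33_P3424803 at chr6:31321644-31321703, on top of these, and the HLA-C probe A_33_P3330109 apart from them at chr6:31236617-31236676, also on the minus strand. The design gave accessions of both HLA-B and HLA-C to each of the 2 overlapping HLA-B probes. Signals of the overlapping probes are therefore named by probe, and their assignment to HLA-B or HLA-C is uncertain. The following 30-base stretches of the overlapping probes are written 5′ to 3′, with the single base at which they differ in capitals.
A_33_P3424800 (HLA-B): agtcaattcctggaaGttgagagagcaaat
A_33_P3379947 (HLA-B): agtcaattcctggaaTttgagagagcaaat
A_33_P3424803 (HLA-C): agtcaattcctggaaGttgagagagcaaat

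Probe A_33_P3424800 and probe A_33_P3424803 shared 41 identical bases. Against A_33_P3379947, A_33_P3424800 differed by the substitution G37T in an overlap of 50 bases, and A_33_P3424803 by G18T in an overlap of 51 bases, with positions counted from 1 at the 5′ end of the first-named probe. HLA-B probe A_33_P3399208 had no position in the design and lay in coding sequence of the heavy chain. It is given 5′ to 3′ with coding probes of HLA-F, B2M and TAPBP, on which the results for those genes rest most. The longest run shared by any other pair of the 16 member probes was 10 bases.
HLA-B A_33_P3399208: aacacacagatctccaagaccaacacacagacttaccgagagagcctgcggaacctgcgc
HLA-F A_33_P3379939: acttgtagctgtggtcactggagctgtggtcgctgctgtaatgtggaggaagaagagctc
B2M A_23_P37441: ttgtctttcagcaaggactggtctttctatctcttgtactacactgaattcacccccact
TAPBP A_33_P3325914: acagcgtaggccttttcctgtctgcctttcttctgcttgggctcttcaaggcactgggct

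In mock-treated cells the heavy chains had lower levels in the resistant line, with the largest differences at the probes named HLA-B. TAP1 differed by little and TAPBP was higher. Of the 13 tested member probes, 9 were lower and 2 higher in CEM RES at an adjusted p below 0.05 (limma, Benjamini-Hochberg over all 22754 probes). Over all tested probes the same rule called 47.6%, 24.9% higher and 22.7% lower, so that nearly as many probes rose as fell. The median difference was -0.76 on the log2 scale for the member probes and 0.04 for all probes. Counted by gene through the brightest probe, 6 of the 8 genes were lower and 1 higher, against 47.4% of 17597 genes called, 24.6% higher and 22.8% lower. Under the study's double threshold, an unadjusted p below 0.05 with a log2 change beyond 0.75, 7 member probes were lower and 1 higher, against 35.6% of all probes, 18.4% higher and 17.2% lower. Without CEM RES mock replicate 1, 9 member probes were lower and 1 higher by adjusted p, and 7 lower and 0 higher under the double threshold. By gene 6 were then lower and 0 higher, since the brightest TAPBP probe no longer passed.

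**Figure D1:**
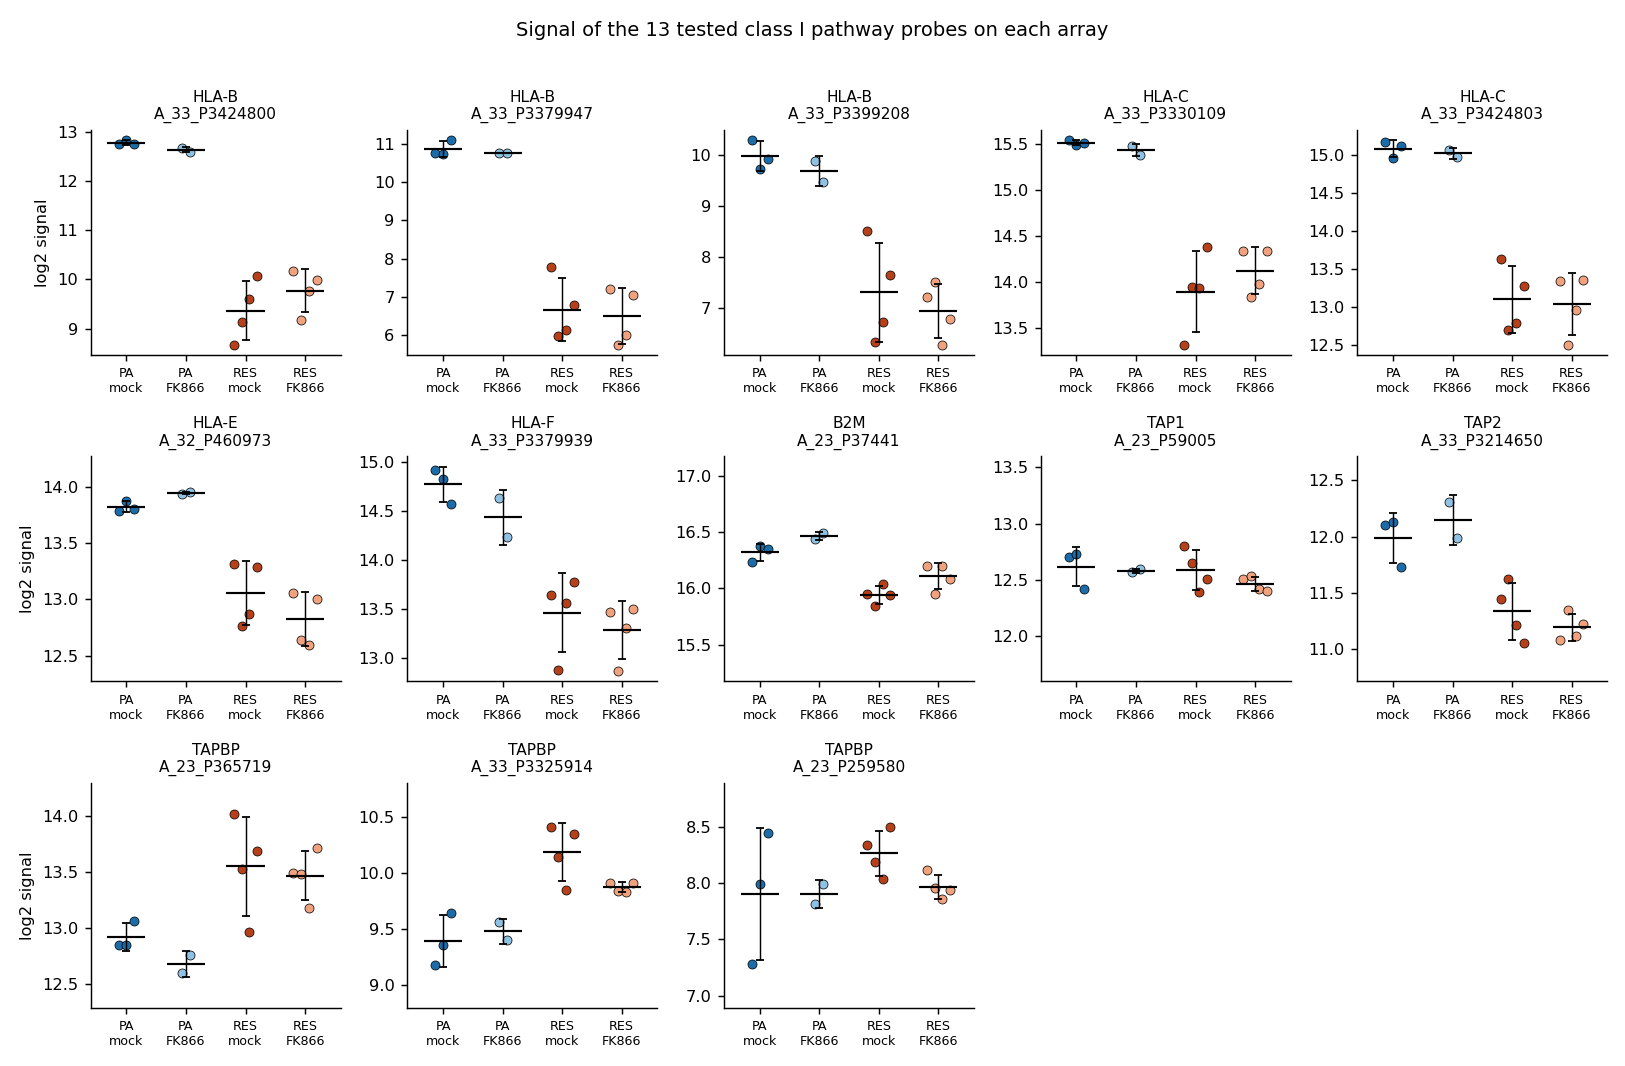
Normalized log2 signal of the 13 tested member probes on each of the 13 arrays, by group, with a bar at each group mean, whiskers of 1 SD and a separate axis for each probe. All 5 HLA-B and HLA-C probes have their 8 CEM RES arrays below their 5 CEM PA arrays, while the mock groups of TAP1 overlap.

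The probes that the design named HLA-B showed the widest separation of the lines. Probe A_33_P3424800 gave log2 signals of 12.75, 12.83 and 12.75 on the 3 arrays of CEM PA mock, and of 8.68, 9.14, 9.60 and 10.06 on the 4 arrays of CEM RES mock, in replicate order. No array of one line reached the other, and the CEM RES arrays were spread over a wider range than those of CEM PA. The level was 10.6-fold lower in CEM RES (log2 difference -3.40, SE 0.298, adjusted p = 6.19e-06). Probe A_33_P3379947 gave 10.77, 10.73 and 11.09 in CEM PA mock and 7.78, 5.97, 6.14 and 6.80 in CEM RES mock. Replicate 1 was here the highest CEM RES array, whereas it was the lowest with A_33_P3424800. The difference was -4.19 (SE 0.432, 18.2-fold, adjusted p = 1.82e-05).

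The coding probe of HLA-B, A_33_P3399208, read 10.30, 9.73 and 9.93 in CEM PA mock and 8.51, 6.34, 6.73 and 7.65 in CEM RES mock. The groups did not overlap, and replicate 1 was again the highest CEM RES array. Its difference was -2.68 on the log2 scale (SE 0.447, 6.41-fold, adjusted p = 0.000472). All 3 probes named HLA-B therefore separated the lines in the same direction, with estimates from 6.41-fold to 18.2-fold. They are not 3 separate measures of HLA-B, since A_33_P3424800 and A_33_P3379947 overlap by 50 bases. The coding probe had no position in the design. How far sequence differences between HLA alleles affect these signals was not tested. With FK866 the separation was seen again on other arrays. A_33_P3424800 read 12.67 and 12.60 in CEM PA FK866 against 10.17, 9.18, 9.76 and 9.99 in CEM RES FK866, a difference of -2.86 (7.26-fold, adjusted p = 9.72e-05). A_33_P3379947 read 10.76 and 10.76 against 7.20, 5.76, 6.02 and 7.06 (-4.25, 19.0-fold, adjusted p = 8.77e-05). A_33_P3399208 read 9.90 and 9.48 against 7.22, 7.51, 6.28 and 6.77 (-2.75, 6.71-fold, adjusted p = 0.00151). None of these groups overlapped between the lines.

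Both probes that the design named HLA-C were lower in CEM RES, by less than the probes it named HLA-B. A_33_P3330109, which lies apart from the HLA-B probes, read 15.54, 15.49 and 15.51 in CEM PA mock and 13.32, 13.94, 13.94 and 14.38 in CEM RES mock. The lines did not overlap, and the level was 3.07-fold lower in CEM RES (-1.62, SE 0.219, adjusted p = 0.000118). A_33_P3424803, the probe that overlaps the HLA-B probes, read 15.18, 14.96 and 15.12 in CEM PA mock and 13.63, 12.70, 12.80 and 13.29 in CEM RES mock. It was 3.94-fold lower in CEM RES (-1.98, SE 0.251, adjusted p = 7.44e-05). Although it shares 41 bases with HLA-B probe A_33_P3424800, the replicates did not fall in the same order, replicate 1 being the highest CEM RES mock array here and the lowest there. With FK866, A_33_P3330109 read 15.48 and 15.39 in CEM PA against 14.34, 13.84, 13.98 and 14.34 in CEM RES (-1.31, 2.48-fold, adjusted p = 0.00182). A_33_P3424803 read 15.07 and 14.97 against 13.35, 12.51, 12.96 and 13.36 (-1.98, 3.94-fold, adjusted p = 0.000324).

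The non-classical heavy chains were also lower. HLA-E, which mainly presents peptides cut from the leaders of other class I heavy chains, read 13.79, 13.88 and 13.80 in CEM PA mock and 13.32, 12.76, 12.87 and 13.29 in CEM RES mock. The lines did not overlap and differed by -0.76 (SE 0.177, 1.70-fold, adjusted p = 0.00379). In FK866 the HLA-E probe read 13.94 and 13.95 in CEM PA against 13.06, 12.64, 12.60 and 13.005 in CEM RES, a difference of -1.12 (2.18-fold, adjusted p = 0.00124). HLA-F, whose product is found largely inside resting cells, read 14.92, 14.82 and 14.57 in CEM PA mock and 13.64, 12.88, 13.56 and 13.77 in CEM RES mock. The groups lay apart, with a difference of -1.31 (SE 0.231, 2.47-fold, adjusted p = 0.000697). In FK866 it read 14.63 and 14.23 against 13.47, 12.87, 13.30 and 13.50 (-1.15, 2.22-fold, adjusted p = 0.00515), again without overlap. Without CEM PA FK866 replicate 1 this HLA-F difference was -0.95, with an adjusted p of 0.0755.

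B2M, the light chain shared by all class I molecules, differed far less. Its probe, averaged over 10 spots per array, read 16.24, 16.38 and 16.35 in CEM PA mock and 15.95, 15.85, 16.04 and 15.94 in CEM RES mock. The groups did not overlap, but the gap was narrow, and the difference was -0.38 (SE 0.121, 1.30-fold, adjusted p = 0.0223). The call was lost under 5 of the 27 alternative settings, among them scaling of the arrays to their 75th percentile (-0.16, adjusted p = 0.410). Others were the omission of CEM PA mock replicate 2 (adjusted p = 0.0725), CEM PA mock replicate 3 (0.0560) or CEM RES mock replicate 2 (0.0511). In FK866 B2M read 16.44 and 16.49 in CEM PA against 16.20, 15.95, 16.20 and 16.09 in CEM RES. The arrays of the lines did not overlap, but the difference of -0.36 did not pass the test (adjusted p = 0.0596).

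Of the subunits of the peptide transporter, TAP2 was lower and TAP1 did not pass the test. TAP1 read 12.71, 12.73 and 12.42 in CEM PA mock and 12.80, 12.65, 12.39 and 12.51 in CEM RES mock. The groups overlapped throughout, and the difference was -0.03 with a 95% interval from -0.33 to 0.27 (adjusted p = 0.883). TAP2, the other subunit, read 12.10, 12.13 and 11.73 in CEM PA mock and 11.44, 11.63, 11.22 and 11.05 in CEM RES mock. These groups did not overlap, the highest CEM RES array being just under the lowest CEM PA array, and TAP2 was 1.57-fold lower (-0.65, SE 0.172, adjusted p = 0.00793). In FK866 TAP1 read 12.57 and 12.59 in CEM PA against 12.51, 12.53, 12.42 and 12.40 in CEM RES (-0.12, adjusted p = 0.599). These TAP1 arrays did not overlap between the lines. TAP2 read 12.31 and 11.99 against 11.08, 11.35, 11.12 and 11.22 (-0.96, 1.94-fold, adjusted p = 0.00272). This last difference was -0.80 with an adjusted p of 0.0502 without CEM PA FK866 replicate 1.

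TAPBP was the one member gene with probes higher in CEM RES. Probe A_33_P3325914 read 9.18, 9.36 and 9.64 in CEM PA mock and 10.41, 10.14, 9.84 and 10.35 in CEM RES mock. The groups did not overlap, and the level was 1.73-fold higher in CEM RES (0.79, SE 0.163, adjusted p = 0.00183). The brighter probe A_23_P365719 read 12.85, 12.85 and 13.06 against 14.02, 13.52, 12.97 and 13.69, so that CEM RES mock replicate 3 fell among the CEM PA arrays. Its difference of 0.63 (SE 0.218, 1.55-fold, adjusted p = 0.0313) was the least stable call among the members. It was lost under 9 of the 27 alternative settings, among them the omission of CEM RES mock replicate 1 (0.47, adjusted p = 0.0751), replicate 2 (0.0510) or replicate 4 (0.0709), and of CEM PA mock replicate 1 (0.0832) or replicate 2 (0.0857). The third tested probe, A_23_P259580, whose position in the design spans an intron, gave a difference of 0.36 with overlapping groups (adjusted p = 0.214). In FK866 A_23_P365719 read 12.60 and 12.76 in CEM PA against 13.49, 13.48, 13.18 and 13.71 in CEM RES (0.79, 1.72-fold, adjusted p = 0.0264). That call was lost without CEM PA FK866 replicate 1 (adjusted p = 0.163) or replicate 2 (0.0846), without CEM RES FK866 replicate 4 (0.0571), and with arrays scaled to their 75th percentile (0.0656). The other tested TAPBP probes did not pass in FK866, with differences of 0.39 (adjusted p = 0.117) and 0.07 (adjusted p = 0.861).

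**Figure D2:**
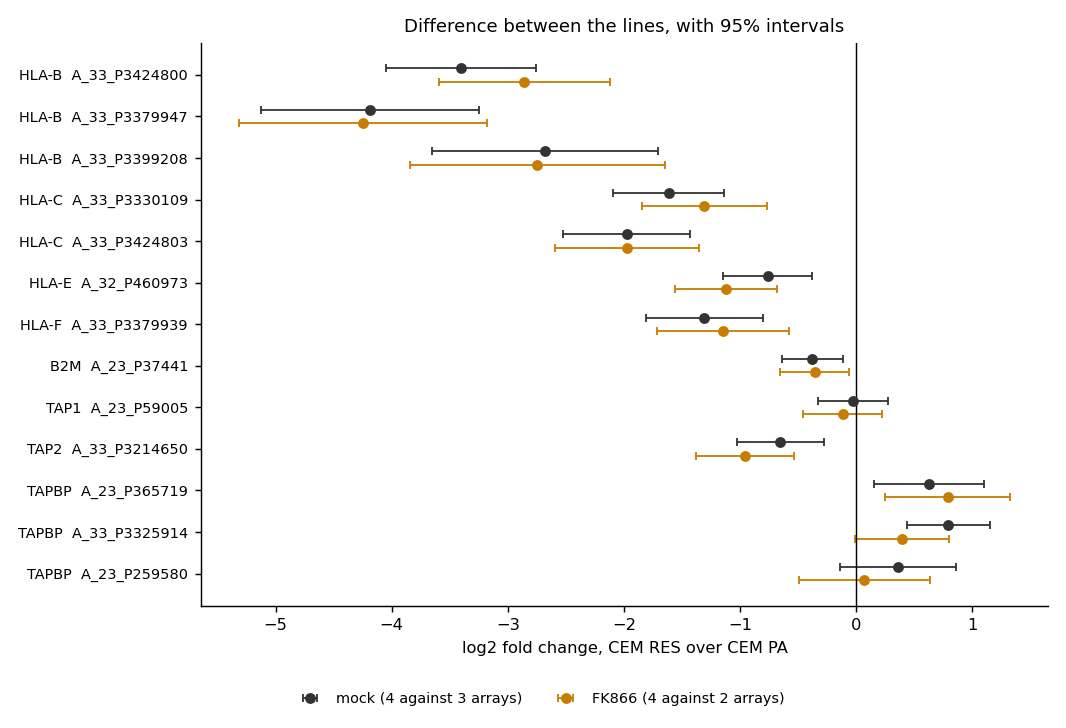
Log2 difference between CEM RES and CEM PA for each tested member probe, with 95% confidence intervals from limma, in mock-treated and in FK866-treated cells. The HLA-B probes lie furthest below 0, from -2.68 to -4.25, both TAP1 intervals include 0, and the TAPBP estimates lie above 0, some with intervals that include it.

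Across both treatments the counts were close. In FK866 8 member probes were lower and 1 higher in CEM RES by adjusted p, against 36% of all probes, 18% higher and 18% lower. The same 8 and 1 were counted under the double threshold, against 30.7% of all probes, 15.2% higher and 15.5% lower. By brightest probe 5 of the 8 genes were lower and 1 higher, against 18.5% of genes higher and 16.8% lower. Arrays of the lines did not overlap at 10 of the 13 probes in mock cells, where the share over all probes was 48.8%, and at 12 of the 13 in FK866, where it was 57.8%. Without CEM RES mock replicate 1 the mock count was again 10, against 54.4% of all probes. Ordered by group mean, the HLA-B, HLA-C, HLA-E, HLA-F and TAP2 probes had both CEM PA groups above both CEM RES groups. The step between the lines was the only step between neighbours in that order that passed the adjusted test at these probes. For B2M the neighbours across the lines, CEM PA mock and CEM RES FK866, differed by 0.21 and did not pass (adjusted p = 0.175).

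The spread of the HLA-B probes within CEM RES was also wide. Their SD over the 4 arrays of a CEM RES group ran from 0.43 to 0.97 on the log2 scale, whereas it ran from 0.002 to 0.29 in the CEM PA groups. Over all tested probes the median SD was 0.281 in CEM RES mock and 0.255 in CEM PA mock. No test of the difference in spread was made.

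FK866 at 5 nM for 48 h brought no called change in any member, in either line. In CEM PA 0 of the 13 probes passed an adjusted p of 0.05 and 0 passed the double threshold, against 1.53% and 6.7% of all probes and, by adjusted p, 0.983% of genes. None of the 13 had an unadjusted p below 0.05 in this fit, which did not pair replicates. The member differences ran from -0.34 to 0.16, and the half-width of their 95% intervals ran from 0.315 to 1.16 by probe. The fit takes 1 variance per probe from all 4 groups, so the spread within CEM RES enters these intervals. A_33_P3424800 had SDs of 0.047 and 0.053 in CEM PA mock and FK866, and 0.595 and 0.433 in CEM RES mock and FK866. Its SE for FK866 in CEM PA was 0.357. With the groups compared alone, as under every alternative, 0 members passed by adjusted p. The lowest adjusted p in CEM PA was 0.656, for HLA-F. With replicates paired by number as a block, HLA-F again had the lowest, 0.124 (-0.44, SE 0.139). Members with an unadjusted p below 0.05 were not counted under that block, where the HLA-F standard error was smaller. FK866 and mock arrays of CEM PA did not overlap at 5 member probes, 2 higher and 3 lower, where the share over all probes was 34.8%.

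In CEM RES 0 member probes passed either rule, where 0% of all probes and 0% of genes passed the adjusted rule and 1.3% of probes the double threshold. In the same unpaired fit 0 members had an unadjusted p below 0.05. At an unadjusted p below 0.05 there were 1171 of the 22754 probes. The member differences ran from -0.36 to 0.41, with half-widths of 0.244 to 0.899. When the replicate number was a block, the lowest adjusted p was 0.413, for HLA-E (-0.23, SE 0.0835). TAPBP A_33_P3325914 followed at 0.420 (-0.31, SE 0.118). Members with an unadjusted p below 0.05 were not counted under the block. Groups were apart at 0 member probes, against 2.9% of all probes. Within batches the HLA-B probe A_33_P3424800 changed with FK866 by -0.08 and -0.19 in scan sessions 1 and 2 of CEM PA, and by 0.14 and 0.67 on slides 5 and 6 of CEM RES.

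Whether the lines differed in their response to FK866 was tested by the interaction term. Again 0 member probes passed by adjusted p or by the double threshold, against 0.413% and 8.03% of all probes and 0.193% of genes by adjusted p. In this unpaired fit 0 members had an unadjusted p below 0.05. The interaction estimates ran from -0.40 to 0.54, with half-widths of 0.399 to 1.47. Under the replicate block the lowest adjusted p was 0.197, for TAPBP A_23_P259580 (-0.56, SE 0.215). TAPBP A_33_P3325914 followed at 0.201 (-0.52, SE 0.204). Here too, members with an unadjusted p below 0.05 were not counted under the block.

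**Figure D3:**
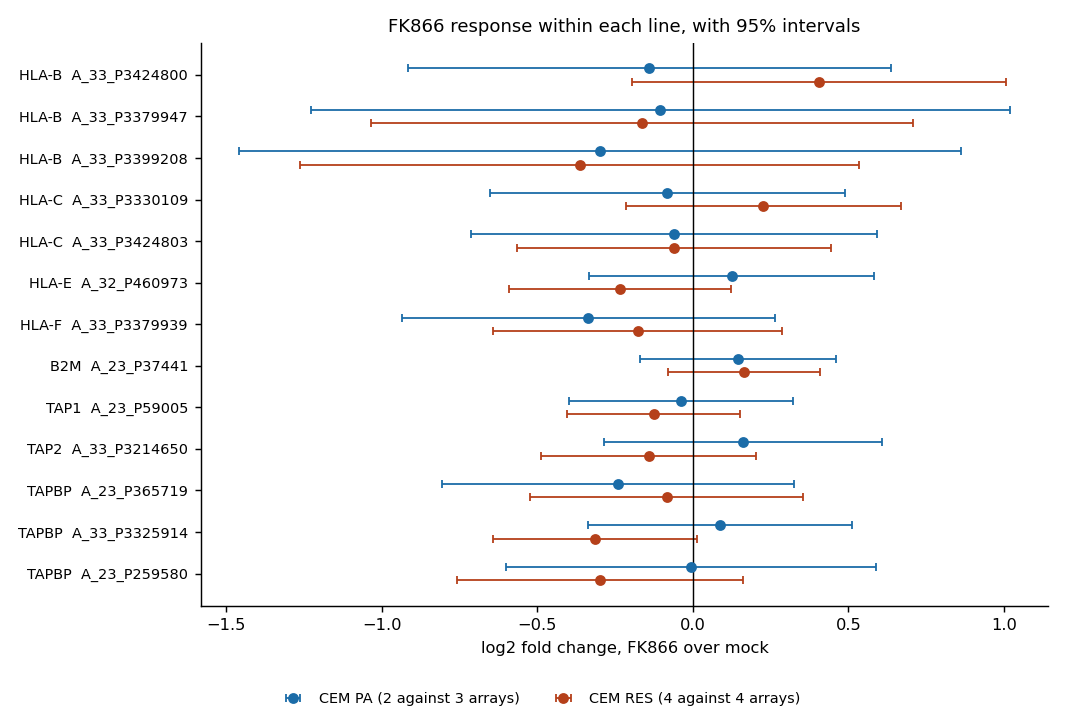
Log2 change with FK866 in CEM PA and in CEM RES for each tested member probe, with 95% confidence intervals from limma without pairing of replicates. All 26 intervals include 0, and the estimates run from -0.34 to 0.16 for CEM PA and from -0.36 to 0.41 for CEM RES.

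The promoters of the called members with a RefSeq entry are shown because class I genes are known to share upstream elements. These are an enhancer bound by NF-kB, an interferon-stimulated response element bound by IRF factors, and the SXY module of X and Y boxes through which NLRC5, RFX, CREB and NFY factors act. The reference sequence from RefSeq (GRCh38.p14) is given for the 200 bases before the start site, 5′ to 3′ on the strand of the gene. Capitals mark matches to GGGGATTC (the core of the class I enhancer) and to GAANNGAAA or GAAANNGAA (overlapping forms of the interferon response repeat). They also mark TGACGC (the core of the X2 element) and CCAATCAG (a CCAAT box). Each was searched on both strands with letters chosen with these promoters in view. The CCAATCAG matches were not assigned to the Y box of the module.
HLA-B chr6:31357180-31357379 minus strand: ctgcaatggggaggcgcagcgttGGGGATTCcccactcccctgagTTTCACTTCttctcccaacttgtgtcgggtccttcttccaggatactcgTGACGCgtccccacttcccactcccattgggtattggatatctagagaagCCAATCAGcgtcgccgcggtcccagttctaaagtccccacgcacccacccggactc
HLA-C chr6:31272093-31272292 minus strand: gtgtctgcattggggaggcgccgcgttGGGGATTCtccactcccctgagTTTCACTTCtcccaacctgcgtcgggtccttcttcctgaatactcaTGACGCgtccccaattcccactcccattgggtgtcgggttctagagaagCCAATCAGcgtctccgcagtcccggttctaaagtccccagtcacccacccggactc
HLA-F chr6:29723234-29723433 plus strand: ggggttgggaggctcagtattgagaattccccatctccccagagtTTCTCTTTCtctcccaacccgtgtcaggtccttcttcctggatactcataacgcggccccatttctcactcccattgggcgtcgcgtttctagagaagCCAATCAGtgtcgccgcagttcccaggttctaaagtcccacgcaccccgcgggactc
B2M chr15:44711317-44711516 plus strand: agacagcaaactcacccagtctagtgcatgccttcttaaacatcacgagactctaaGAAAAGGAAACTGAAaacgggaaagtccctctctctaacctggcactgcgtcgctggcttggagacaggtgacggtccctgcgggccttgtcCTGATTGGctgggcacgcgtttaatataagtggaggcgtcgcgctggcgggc
TAP2 chr6:32838740-32838939 minus strand: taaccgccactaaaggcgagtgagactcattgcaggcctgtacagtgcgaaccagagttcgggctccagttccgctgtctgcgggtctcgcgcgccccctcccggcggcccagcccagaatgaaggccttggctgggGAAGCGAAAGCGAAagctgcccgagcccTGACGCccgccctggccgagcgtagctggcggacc
TAPBP chr6:33314079-33314278 minus strand: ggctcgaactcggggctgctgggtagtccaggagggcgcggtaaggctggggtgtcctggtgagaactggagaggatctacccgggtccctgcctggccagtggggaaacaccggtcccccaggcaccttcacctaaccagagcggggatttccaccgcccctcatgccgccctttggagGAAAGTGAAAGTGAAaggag

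HLA-B and HLA-C held the same 4 matches in the same order, GGGGATTC, GAANNGAAA, TGACGC and CCAATCAG. HLA-F held GAAANNGAA and CCAATCAG, and B2M held GAAANNGAA at 2 overlapping places and CCAATCAG. TAPBP, the member that was higher, held GAAANNGAA at 2 overlapping places just before the start site and none of the other letters searched. TAP2 held both repeat forms and TGACGC, while TAP1 had GAAANNGAA at 2 places in one of its 2 RefSeq start sites. Of 35116 promoters of 300 bases, 0.888% held GGGGATTC, 7.66% GAANNGAAA, 8.11% GAAANNGAA, 9.14% TGACGC and 3.97% CCAATCAG. A match describes the reference letters and was not measured in these cells.

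Other genes of the pathway were read from lists of loading, peptide cutting and control genes, each gene through its brightest tested probe. Among 9 loading and trimming genes 2 were higher and 1 lower in mock CEM RES (median -0.16, against 0.04 over all genes). Over all genes, the background for this list and the next, 24.6% were higher and 22.8% lower. PDIA3, which encodes the disulfide isomerase ERp57 of the loading complex, was higher by 0.94 (adjusted p = 0.000361), although its other probe read -0.36 and did not pass. CANX, the chaperone calnexin that folds new heavy chains, was higher by 0.78 (adjusted p = 0.00124), and HSPA5, the chaperone BiP, differed by -0.68 (adjusted p = 0.0325). Of 5 immunoproteasome genes 1 was higher and 0 were lower (median 0.24). The activator subunit PSME1 differed by 0.99 (adjusted p = 0.00188), while the catalytic subunits PSMB8 and PSMB9 differed by -0.04 (adjusted p = 0.848) and 0.34 (adjusted p = 0.0948).

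Of 24 regulators of class I genes 4 were higher and 9 lower in mock CEM RES (median -0.31), where 24.6% of all genes were higher and 22.8% lower. NLRC5, the class I transactivator, was lower by a log2 difference of -0.80 in mock (adjusted p = 0.00912) and -0.96 in FK866 (adjusted p = 0.00955). The interferon pathway factor IRF1 differed by -0.10 and did not pass (adjusted p = 0.705). Lower were IFNGR2, a chain of the interferon gamma receptor (-1.21), SOCS1, an inhibitor of JAK signalling (-1.08), NFYA, a subunit of the Y box factor (-1.02), and STAT2 (-0.91). Higher were CREB1, a binder of the X2 element (1.71), RFXANK, a subunit of the RFX complex (0.91), NFYC (0.73, with another of its probes at -0.01), and RFXAP (0.43). Without CEM RES mock replicate 1 the counts were 3 higher and 8 lower, and RFXAP no longer passed (0.43, adjusted p = 0.0656).

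**Figure D4:**
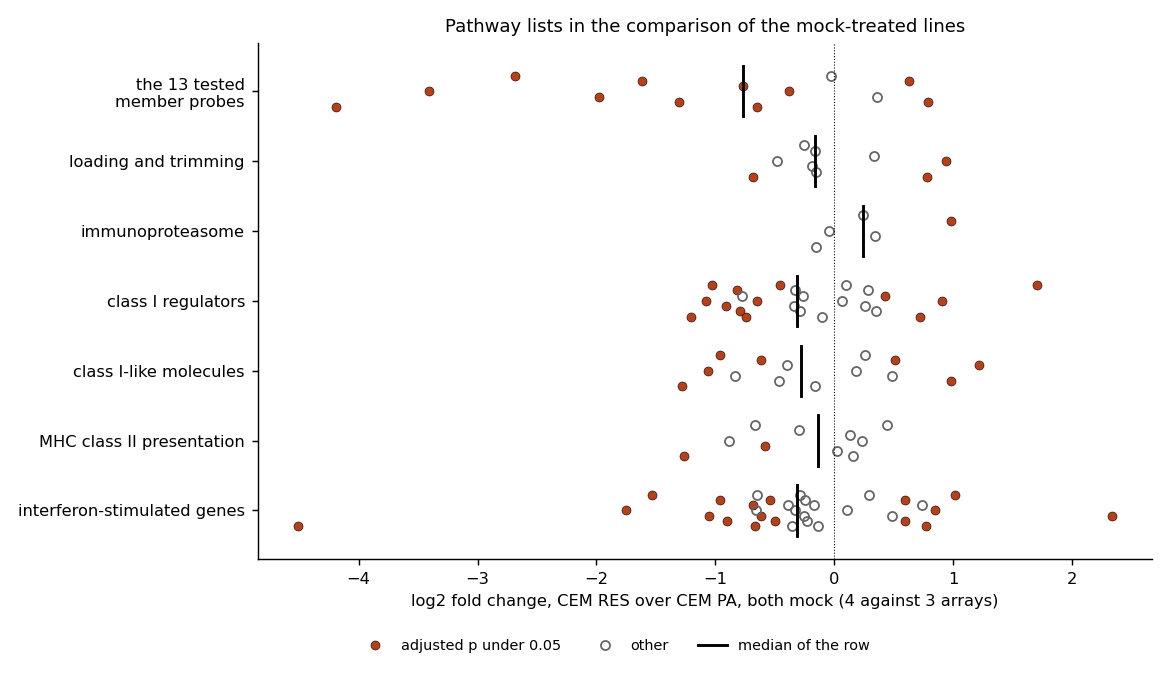
Log2 difference between CEM RES and CEM PA, both mock, for the 13 tested member probes and for every tested gene of 6 pathway lists (1 point per gene, brightest probe), filled where the adjusted p was under 0.05, with a line at each median. The member median lies at -0.76 and the list medians between -0.31 and 0.24, and every list holds genes on both sides of 0.

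Of 14 tested genes for class I-like molecules, 3 were higher and 4 lower (median -0.28). MR1, which presents vitamin B metabolites, was lower by a log2 difference of -1.28, HLA-G, a non-classical heavy chain, of -1.06, the lipid presenter CD1C of -0.96, and FCGRT, the neonatal Fc receptor, of -0.61. Higher were RAET1E (1.22) and ULBP2 (0.99), ligands of the natural killer receptor NKG2D, and CD1B (0.52). How far the HLA-G probe also reads transcripts of the other heavy chains was not tested. Among 10 tested MHC class II genes 0 were higher and 2 lower, the peptide exchange subunits HLA-DMA (-1.27) and HLA-DMB (-0.58). Of 32 tested interferon-stimulated genes 6 were higher and 11 lower (median -0.31), beside the same 24.6% and 22.8% over all genes. GBP2, a guanylate-binding protein, had the largest difference of that list (-4.51, adjusted p = 2.61e-05), followed among the lower genes by the exonuclease ISG20 (-1.75), the GTPase MX2 (-1.53, with its other probe at 0.49) and IFIT2 (-1.06). EIF2AK2, the kinase PKR, was higher by 2.34, OAS3 by 1.01 (its other probe read -0.02), IFITM2 by 0.85 and OAS1 by 0.77. The list therefore held genes in both directions.

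Without CEM RES mock replicate 1 the counts of higher and lower genes were 2 and 1 for loading, 1 and 0 for the immunoproteasome, 3 and 6 for class I-like molecules, 0 and 2 for class II, and 4 and 11 for interferon-stimulated genes, where 23.3% of all genes were higher and 23% lower. In FK866-treated cells, CEM RES against CEM PA gave 2 higher and 1 lower for loading, 0 and 0 for the immunoproteasome, 3 and 6 for the regulators, 1 and 7 for class I-like molecules, 0 and 2 for class II, and 4 and 6 for interferon-stimulated genes, where 18.5% of all genes were higher and 16.8% lower. No list was tested against the other genes. FK866 itself moved 0 genes of these 6 lists past the adjusted threshold in either line, and 0 in the interaction. NLRC5 changed with FK866 by -0.15 (CEM PA) and -0.31 (CEM RES), and neither value passed. Of 5 tested B lineage markers 3 were lower in mock CEM RES, and the summed signal of that list was 3734 to 4417 in CEM PA mock and 2273 to 3664 in CEM RES mock. Their part in the differences of the class I genes was not tested.

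The genes outside the set whose profile was nearest to each member were found among 17560 genes. The measure was the root mean square difference of log2 signal over the 13 arrays, each gene centred on its own mean. For HLA-B the nearest was NACC2, at 0.288 against a spread of the HLA-B profile itself of 1.64 (SD), and for HLA-C it was TMEM175, at 0.158 against 0.793. HLA-E was nearest to C9orf89 (0.0984), HLA-F to UBA7 (0.143), B2M to CDK5RAP2 (0.0749), TAP1 to C22orf13 (0.0643), TAP2 to TBC1D13 (0.101) and TAPBP to MDC1 (0.0992). The members themselves were left out of the search, and the result describes these 13 arrays only.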

How the data were processed

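RNA of 13 samples in 4 groups was read on 1-colour Agilent arrays. The authors deposited scanner intensity values (background-subtracted processed signal, with flags for outlier spots and for signal well above background, Feature Extraction 10.7.7.1 per the submitters' processing notes) and a table of normalized log2 values, which was used as an alternative. The depth of an array has no counterpart to read counts, and the number of arrays limits the precision.

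From the processed signal, outlier spots were left out, log2 values were quantile normalized over the 13 arrays, and spots of a probe were averaged. Probes of a gene were kept apart. A 4-group linear model was fitted to the 22754 probes that were well above background on all arrays of 1 or more groups (limma 3.58.1, R 4.3.3), with eBayes and Benjamini-Hochberg adjustment over all of them. Standard errors, intervals and adjusted p-values are from this fit. The p-values measure the spread between arrays of a group, pooled for each probe over the 4 groups. The labels call the arrays of a group biological replicates. Quantile normalization sets all arrays to 1 distribution, so a shift shared by most probes is removed.

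The genes named were all 8 members, up to 4 higher and 4 lower genes of each list with the largest change past the threshold, NLRC5, IRF1, PSMB8 and PSMB9, and the nearest profile to each member. Another gene that this rule names is not reported here. The members and lists were chosen with earlier results of these data known. The test between the lines in mock was checked on simulated data in which few probes were changed. At an adjusted p below 0.05 it recovered 36.4% of log2 changes of -1, 73.5% of -2 and 100% of -4. For changes of 1, 2 and 4 it recovered 54.5%, 93.9% and 97.0%. The FK866 and interaction tests were not simulated. Promoters were matched by symbol for 7 of the 8 members, HLA-E having no entry, and probe sequences were taken from the deposited files. Alternatives were other scalings and background corrections, outlier spots kept, array weights, an intensity trend in the variances, other probe filters, the slide or scan session and the replicate number as a block, the groups compared alone, the brightest probe of a gene, the deposited table, and each array left out. Mock and FK866 arrays of the same replicate number shared deviations from their group means, with correlations of 0.199 to 0.474 in CEM RES, all over 0.1. In CEM PA they were 0.460 and 0.353, but the deviations of only 2 FK866 arrays mirror each other. CEM PA mock replicate 3, which has no partner, gave 0.259 with FK866 replicate 2. The replicate 1 arrays of CEM PA were also the only arrays of scan session 1, so pairing and session cannot be told apart there.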

Additional observations from a re-analysis of the deposited data

Results flagged for a closer look

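Among 32 groups of 4 arrays tested for a single array far from the rest, 1 was marked. This was the dim TAPBP probe A_23_P360291 in CEM RES mock, where replicate 1 read 3.05 and the other arrays 3.61, 3.61 and 3.57. Its gap to the nearest array was 0.938 of the range of the group, above the 95% critical value of Dixon's test. Chance marks about 1 in 20 such groups. The probe was well above background on 7 of the 13 arrays and was not tested between groups.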

How the results depend on the processing

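No called difference among the member probes changed direction under the 27 alternative settings. Estimates that did not pass changed sign under at least 1 setting at 1 of the 13 probes between the lines in mock (TAP1), at 1 in FK866 (TAPBP A_23_P259580), at 7 for FK866 in CEM PA, at 4 for FK866 in CEM RES and at 8 for the interaction. Of the 11 probes called between the lines in mock cells, 9 held under every alternative and 2 were lost under at least 1 (B2M and TAPBP A_23_P365719). Of the 9 called in FK866, 6 held under every alternative run and 3 were lost under at least 1 (HLA-F, TAP2 and TAPBP A_23_P365719). The HLA-B, HLA-C and HLA-E probes passed under every alternative in which they were entered. With only the brightest probe of each gene, 7 probes passed the adjusted threshold and 4 the double threshold in mock, because fewer probes were entered. With no filter on dim probes, 1 probe, the dim HLA-F A_33_P3379967, passed the double threshold for FK866 in CEM PA (-1.58) and 1, the same probe, for the interaction (1.69). With the slide as a block 1 probe, TAPBP A_23_P259580, passed it for the interaction (-0.83), and the cause was not tested. Leaving out each array in turn, the members called by adjusted p were 9 to 11 in mock and 6 to 9 in FK866. With the replicate number as a block, 0 members passed for FK866 in either line or for the interaction, and 11 and 10 passed between the lines in mock and FK866, while calls over all probes rose from 347 to 1218 for FK866 in CEM PA. With arrays scaled to their 75th percentile the median difference of all probes between the lines was 0.16, against 0.04. Leaving out CEM RES mock replicate 1 together with CEM PA mock replicate 1 was added after seeing the data, and left 10 members called in mock and 9 in FK866.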

Other observations

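The member probes that were too dim to test gave the following values. The HLA-F probe A_33_P3379967 was well above background on 2 arrays, with log2 signals of 3.26, 2.72 and 2.59 in CEM PA mock, 0.86 and 1.69 in CEM PA FK866, 1.64, 2.46, 2.16 and 2.13 in CEM RES mock and 1.04, 2.41, 2.74 and 2.67 in CEM RES FK866. The TAP2 probe A_23_P368067 was well above background on 2 arrays, and it read 6.08 on CEM RES mock replicate 3 and 0.93 to 3.29 on the other 12. The brighter TAP2 probe read 11.22 on that same array, within the range of its group.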
